A study of Mus musculus with 686 samples.

Results

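The muscle microRNAs mmu-miR-206-3p, mmu-miR-1a-3p, mmu-miR-133a-3p and mmu-miR-133b-3p were followed through a mouse spaceflight series of small RNA libraries. They were chosen by name from the miRNA count table and were 4 of the 1964 miRNAs listed there. The series held 686 libraries from 83 female BALB/cAnNTac mice and 13 tissues: brown adipose tissue (BAT), brain, diaphragm, gonadal (GAT), mesenteric (MAT) and subcutaneous (SCAT) adipose tissue, heart, kidney, liver, lung, pancreas, spleen and thymus. Flight mice (FL) had lived on the International Space Station, habitat ground controls (HGC) had lived in the same flight hardware at matched temperature, humidity and carbon dioxide, and vivarium ground controls (VGC) had lived in ordinary cages. Mice were either 3 or 8 months old. Of the libraries, 348 came from the live animal return collection (LAR), in which flight mice spent 39.5 days in orbit and were collected 2 to 4 days after splashdown, and 338 came from the terminal collection (TERM), in which mice were killed 22 to 24 days after launch. TERM carcasses were frozen whole and thawed for dissection, except that the spleen was taken fresh, so the TERM tissues and the LAR tissues differ in time, return to Earth and freezing together. All mice were of 1 sex and strain, and brain LAR and pancreas TERM held mice of 3 months only.

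A microRNA is a short RNA that pairs with messenger RNAs, mainly through its seed near the 5′ end, and lowers their translation and stability. The miR-1 and miR-133 families are made from shared precursors in heart and skeletal muscle, where miR-1 is known for promoting the differentiation of muscle cells and miR-133 for restraining heart growth and supporting the proliferation of muscle precursors. miR-206 is a relative of miR-1 with the same seed family and is known from skeletal muscle, in particular slow fibres, regenerating fibres and nerve-muscle contacts. miR-133b is a near copy of miR-133a and lies beside miR-206 in the genome.

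The sequence that carries the contrast between heart and diaphragm is that of miR-206-3p. It is shown with its partner strand and with both strands of the neighbouring miR-133b hairpin, whose reads were compared with it. The miR-208 and miR-499 strands, which had their highest medians in heart, are shown as well. All these sequences come from RefSeq (GRCm38.p6), which matched 1673 of the listed miRNAs, and capitals mark the seed (bases 2 to 8). Mir206 (chr1:20679055-20679076 for miR-206-3p, plus strand) and Mir133b (chr1:20682834-20682855 for miR-133b-3p, plus strand) are separated by 3686 bases on chromosome 1.
miR-206-3p: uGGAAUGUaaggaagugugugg
miR-133b-3p: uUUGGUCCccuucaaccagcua
miR-206-5p: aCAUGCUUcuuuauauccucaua
miR-133b-5p: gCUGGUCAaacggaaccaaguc
miR-208a-3p: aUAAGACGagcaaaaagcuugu
miR-208b-3p: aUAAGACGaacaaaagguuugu
miR-499-5p: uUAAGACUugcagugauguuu
Both miR-208 strands share a seed. The seed of miR-206-3p was also found in miR-6349 and miR-6382 among the matched sequences. The counts for miR-133a-3p and miR-133b-3p may hold each other's reads, because their mature sequences are nearly the same.

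Each library held between 0.181 M and 30.5 M miRNA counts (M stands for 1000000), with a median of 3.88 M. Levels are counts per 1000000 miRNA counts of a library (CPM), and no library lacked any of the 4 miRNAs. Their lowest counts were 32 for miR-1a-3p, 303 for miR-133a-3p, 58 for miR-133b-3p and 5 for miR-206-3p. The labelled tissue was checked with 717 other miRNAs, muscle miRNAs left out. By this check 164 libraries (23.9%) were closest to the profile of another tissue, among them 20 of 59 diaphragm, 11 of 50 heart, 21 of 60 BAT, 13 of 58 SCAT, 6 of 60 GAT, 12 of 58 lung and 43 of 57 MAT libraries. Of these, 118 lay in 11 of the 44 sequencing pools. All libraries were kept under their labels. Most main results are given also without the libraries of another profile or without the 11 pools. The GAT calls by age and between collections are not given that way. Most defining marker miRNAs had their highest median in the tissue they are known from, as miR-208a-3p, miR-208b-3p and miR-499-5p were highest in heart, miR-122-5p in liver, miR-124-3p in brain and miR-217-5p in pancreas, while the airway miRNA miR-449a-5p was higher in thymus (370.0 CPM) than in lung (244 CPM).

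With all libraries kept, diaphragm and heart had the highest medians of miR-1a-3p, miR-133a-3p and miR-133b-3p among the tissues. Without the 11 pools miR-133b-3p in TERM had medians of 30340 CPM in diaphragm, 18309 CPM in SCAT, 15766 CPM in BAT and 15636 CPM in heart. Together the 4 miRNAs made up a median of 39.4% of all miRNA counts in diaphragm LAR and 35.7% in TERM, and 30.1% and 25.1% in heart. miR-133a-3p was the most abundant member in both. In diaphragm its lowest, median and highest level was 206, 266008 and 395776 CPM in LAR (n = 30) and 136, 244918 and 406128 CPM in TERM (n = 29). In heart the same values were 299, 231522 and 380113 CPM in LAR (n = 22) and 315, 186342 and 328442 CPM in TERM (n = 28). The lowest values of both tissues were from libraries whose other miRNAs matched another tissue. Without those libraries miR-133a-3p ranged from 225685 to 395776 CPM in diaphragm LAR (n = 21) and from 131312 to 372918 CPM in heart LAR (n = 17), and the 4 miRNAs made up a median of 42.7% and 31.6% of the counts. In bulk tissue, fewer muscle cells and less of the miRNA per cell cannot be told apart.

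With all libraries miR-1a-3p had a higher median in heart than in diaphragm. It stood at 43.6, 45697 and 72919 CPM (lowest, median, highest) in heart LAR and at 80.0, 36464 and 69127 CPM in heart TERM. In diaphragm it stood at 58.2, 33209 and 74087 CPM in LAR and at 14.6, 29913 and 75295 CPM in TERM. The ranges overlapped almost fully. Without the libraries of another profile the medians were 52187 CPM in heart and 40194 CPM in diaphragm in LAR, and 37795 and 38162 CPM in TERM, where the order turned. With all libraries miR-133b-3p went the other way, with a median of 29630 CPM in diaphragm LAR and 24352 CPM in TERM against 17833 and 15371 CPM in heart. Its range in heart, from 46.8 to 45191 CPM in LAR, lay largely inside the range in diaphragm, from 44.7 to 46375 CPM.

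**Figure D1:**
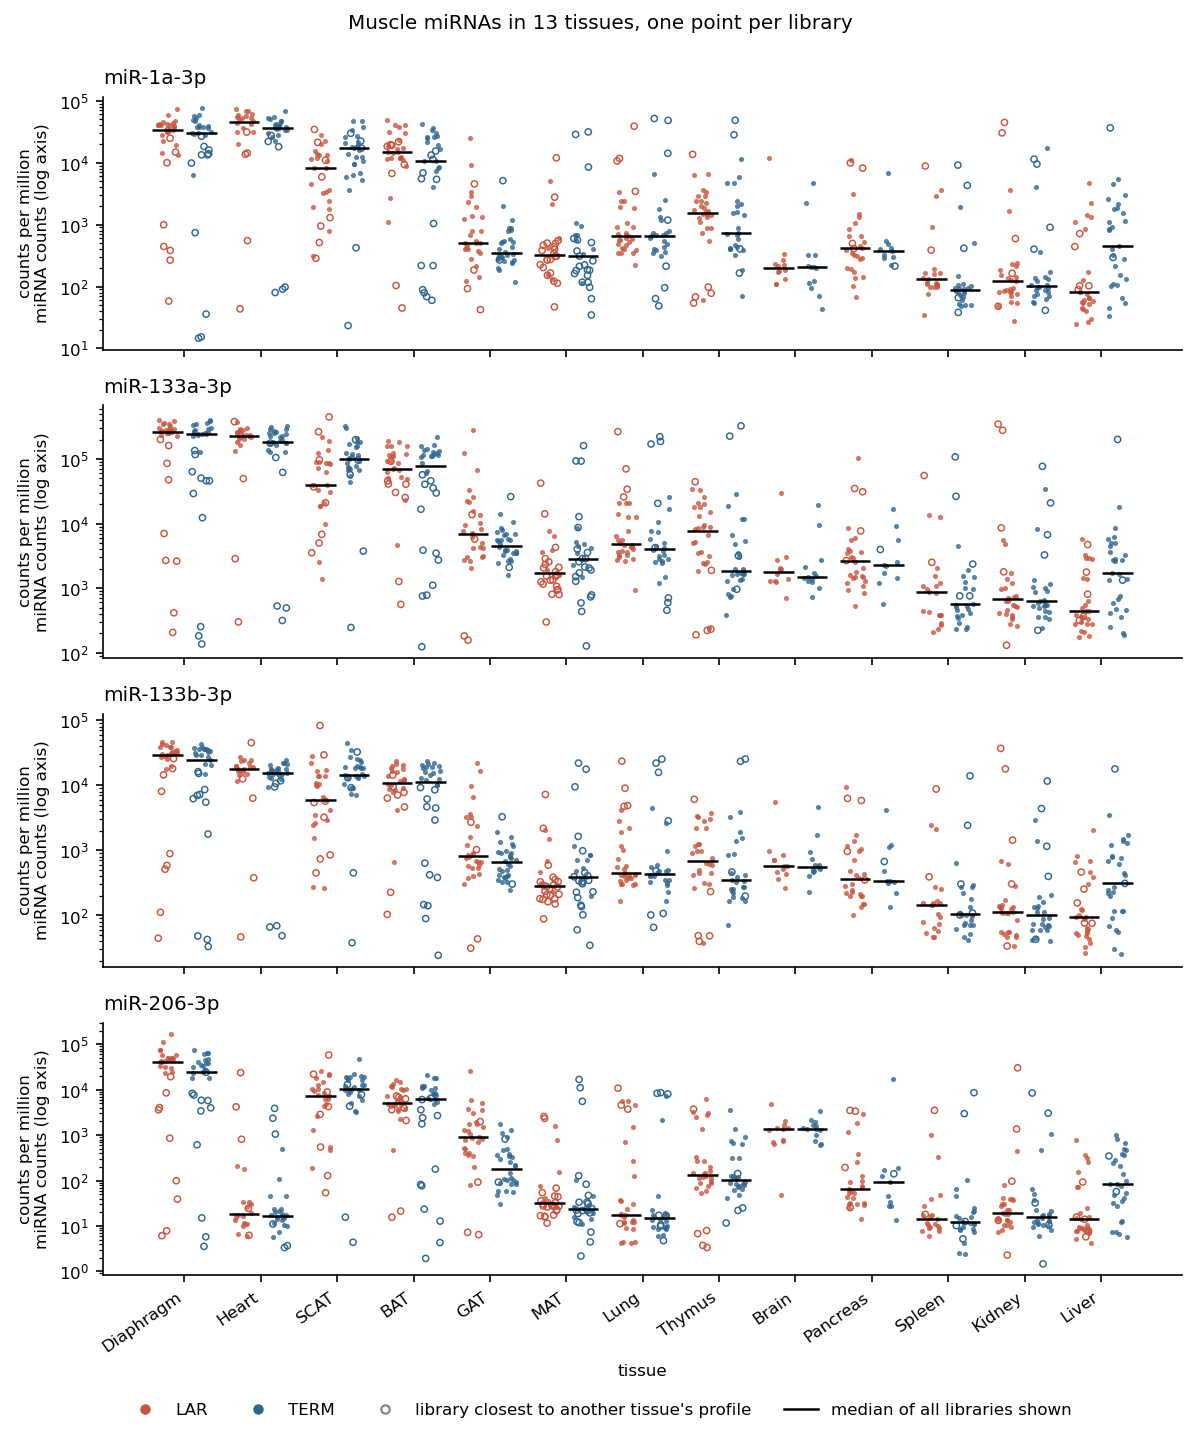
Levels of the 4 miRNAs in 13 tissues, in CPM on a log axis, with LAR and TERM libraries side by side, 1 point per library, open points for libraries closest to another tissue's profile and a bar at the median. Diaphragm and heart lead for miR-1a-3p, miR-133a-3p and miR-133b-3p, BAT and SCAT follow, and for miR-206-3p most heart libraries sit near the level of kidney and spleen.

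miR-206-3p set heart and diaphragm apart. In diaphragm it stood at 6.11, 40578 and 168381 CPM in LAR and at 3.55, 25189 and 74777 CPM in TERM. In heart it stood at 5.99, 18.1 and 23758 CPM in LAR and at 3.34, 17.0 and 3880 CPM in TERM, which placed heart 10 in the order of the 13 tissues in both collections. Without the libraries of another profile the groups no longer overlapped: diaphragm libraries lay between 23874 and 168381 CPM in LAR and between 18284 and 74777 CPM in TERM, and heart libraries between 5.99 and 209 CPM in LAR and between 5.61 and 499 CPM in TERM. The heart library at 23758 CPM, FL LAR mouse 13, had the profile of diaphragm, and the diaphragm library of the same mouse stood at 6.11 CPM with the profile of pancreas.

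The contrast of diaphragm with heart was tested over all miRNAs with edgeR's quasi-likelihood test and Benjamini-Hochberg adjustment. Of the 4 members, 1 passed in each collection, where 27.8% of all 1112 miRNAs tested passed in LAR and 36.5% of 1115 in TERM. miR-206-3p was higher in diaphragm, with a log2 fold change of 7.27 (SE 1.16, adjusted p = 5.47e-06) in LAR and 7.85 (SE 0.863, adjusted p = 2.6e-10) in TERM. The log2 fold changes of miR-133b-3p were 0.50 and 0.51, those of miR-133a-3p 0.03 and -0.02 and those of miR-1a-3p -0.54 and -0.33, and none of these passed. Without the libraries of another profile miR-206-3p had log2 fold changes of 11.06 and 10.18, and miR-133b-3p was called higher in diaphragm in both collections, by 0.84 (adjusted p = 1.26e-06) and 0.85 (adjusted p = 2.52e-06). miR-133a-3p was then called in LAR (0.34, adjusted p = 0.0234) and not in TERM (0.33, adjusted p = 0.0864). In those fits 48.8% of 995 miRNAs passed in LAR and 46.5% of 961 in TERM, so the call of miR-133b-3p lay among many. miR-1a-3p had log2 fold changes of -0.32 and 0.02 there, neither of which passed.

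Some mice gave both tissues, 12 in LAR and 27 in TERM, which allowed a comparison within the animal. miR-206-3p was higher in diaphragm in 11 of 12 and in 23 of 27 mice, with median log2 differences of 10.76 and 10.27. Where both libraries had the profile of their own tissue it was higher in diaphragm in 8 of 8 and in 15 of 15 mice, with differences from 8.11 to 12.94 and from 7.75 to 12.50 on the log2 scale. Among the same mice miR-133b-3p was higher in diaphragm in 6 of 8 and in 14 of 15, miR-133a-3p in 8 of 8 and in 13 of 15, and miR-1a-3p in 3 of 8 and in 7 of 15. Of the 4 miRNAs, miR-206-3p alone was higher in diaphragm in every such mouse of both collections.

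**Figure D2:**
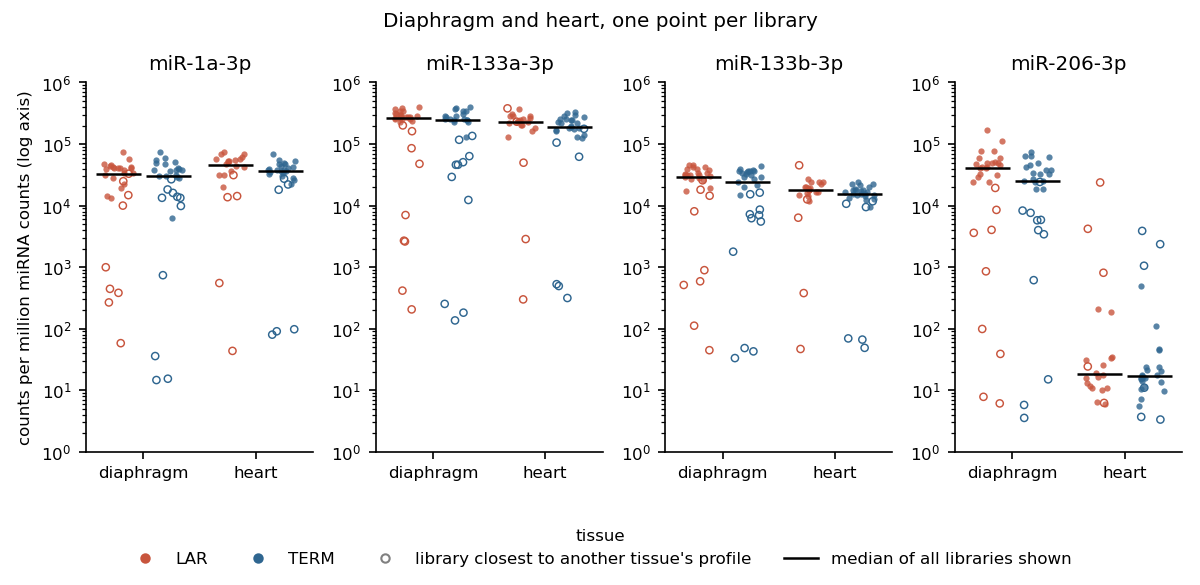
Levels of the 4 miRNAs in diaphragm and heart libraries, in CPM on a log axis, with points per library and bars at medians of all libraries shown. The filled points of miR-206-3p lie at 18284 or above in diaphragm and at 499 or below in heart, while those of the other 3 miRNAs overlap between the tissues, least for miR-133b-3p, whose filled points run from 17555 to 46375 CPM in diaphragm LAR and from 11849 to 26820 CPM in heart LAR.

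Of a list of 13 partner strands and other muscle miRNAs, 10 in LAR and 9 in TERM had 5 or more counts in at least 10% of the libraries of both tissues. Of these, 0 were called higher in diaphragm and 3 higher in heart in each collection. Over all miRNAs tested, 165 of 1112 were called higher in diaphragm and 144 higher in heart in LAR. In TERM these were 254 and 153 of 1115. The listed miRNAs had a median log2 fold change of -0.28 in LAR and -0.46 in TERM, beside 0.03 and 0.19 over all miRNAs tested. The 3 that were higher in heart were the miRNAs carried in myosin heavy chain genes, miR-208a-3p (log2 fold changes -6.57 and -6.84), miR-208b-3p (-1.19 and -1.12) and miR-499-5p (-4.13 and -4.11). The partner strand of miR-133a had a median of 816 CPM in diaphragm and 928 CPM in heart in LAR and 714 and 742 CPM in TERM among libraries of their own profile.

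The partner strands of miR-206 and miR-133b had few counts. miR-206-5p reached 5 counts in 6 of 30 LAR and 5 of 29 TERM diaphragm libraries and miR-133b-5p in 10 and 7, and in heart both reached it in 0 of 22 and 0 of 28. They were kept for testing through diaphragm alone, so their difference was fixed by the filter and no test of it is given. miR-206-5p had a count in 15 of 21 LAR and 12 of 18 TERM diaphragm libraries of their own profile and in 0 of 17 and 0 of 22 heart libraries. miR-133b-5p had a count in 17 of 21 and 14 of 18 of these diaphragm libraries and in 0 of 17 and 1 of 22 heart libraries, the last with 1 count. The same heart libraries held 2283520 counts of miR-133b-3p in LAR and 2725100 in TERM. miR-133b-3p was therefore read at high counts in heart while the opposite strand of its hairpin was hardly read there, and how many of those reads derive from miR-133a was not tested. The opposite strand was also scarce in diaphragm, with 5 counts in only 10 of 30 and 7 of 29 libraries. In diaphragm LAR miR-133b-3p had arm medians from 26961 to 31128 CPM. Over all libraries miR-206-5p had a count in 18 of 30 and 14 of 29 diaphragm and in 1 of 22 and 1 of 28 heart libraries, and miR-133b-5p in 18 of 30 and 18 of 29 against 2 of 22 and 3 of 28.

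The ratio of miR-206-3p to miR-1a-3p within a library does not depend on the library total. Among libraries of their own profile its median was 116% in diaphragm LAR and 89.8% in TERM, and 0.0321% and 0.0445% in heart. Of the adipose tissues, BAT stood at 42.4% and 50.1%, SCAT at 76.8% and 76.4%, GAT at 155.5% and 36.2% and MAT at 34.0% and 4.49%, all above heart. Lung stood at 2.91% and 2.36% and thymus at 14.1% and 16.1%. Brain had more miR-206-3p than miR-1a-3p, at 409% and 594%. The ratio of miR-133a-3p to miR-133b-3p ran in a narrower band, with medians of 11.9 and 12.3 in heart, 8.34 and 8.46 in diaphragm, 9.50 and 8.28 in lung, 7.41 and 7.21 in BAT, 7.11 and 6.85 in SCAT, 6.91 and 6.77 in GAT and 2.84 and 2.83 in brain.

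**Figure D3:**
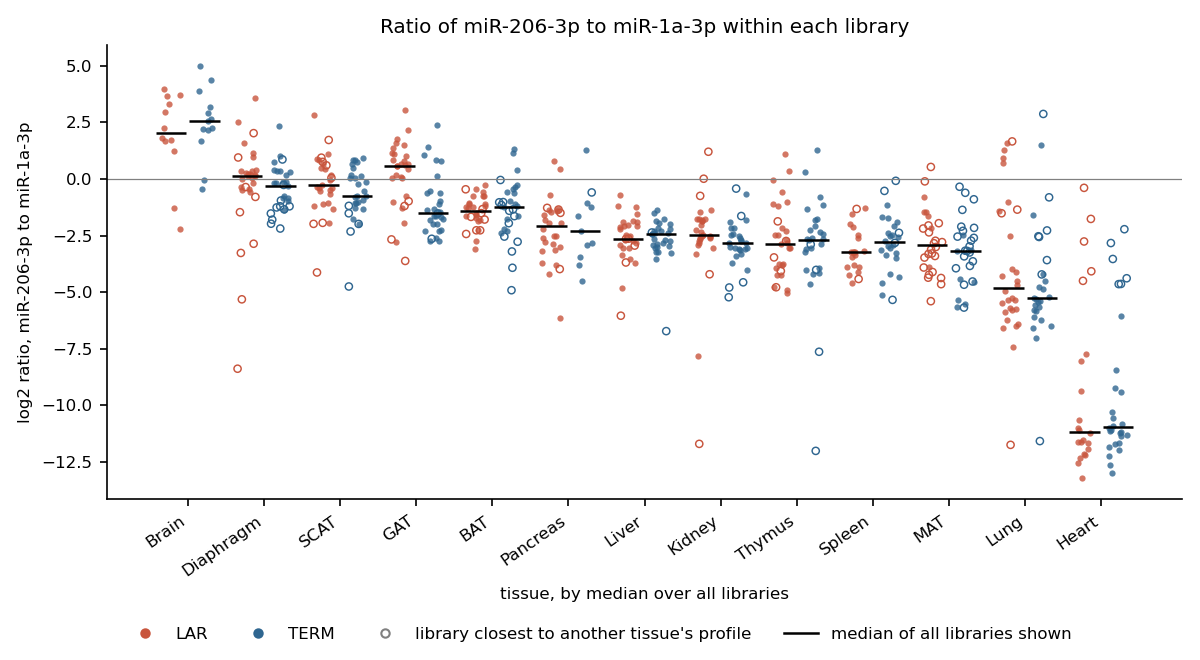
Log2 ratio of miR-206-3p to miR-1a-3p in every library, by tissue in the order of the median over all libraries, with LAR and TERM side by side and open points for libraries of another profile. Brain lies above 0, diaphragm around 0, SCAT and BAT just below it, and heart at the far lower end.

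With all libraries BAT and SCAT followed the muscles in miR-1a-3p, miR-133a-3p and miR-133b-3p, and stood below diaphragm and above heart in miR-206-3p. In BAT miR-1a-3p stood at 45.0, 14941 and 48091 CPM in LAR (n = 30) and at 59.8, 10717 and 41423 CPM in TERM (n = 30), or a median of 45.0% and 35.8% of that in diaphragm. Without the libraries of another profile, 8 of 30 in LAR and 13 of 30 in TERM, the medians were 14941 and 21797 CPM, or 37.2% and 57.1% of that in diaphragm. Its miR-133a-3p medians were 71228 and 76664 CPM, or 93415 and 118575 CPM without those libraries, and its miR-133b-3p medians 11005 and 11184 CPM, or 12031 and 16460 CPM without them. miR-206-3p stood there at 15.6, 5176 and 16619 CPM in LAR and at 1.92, 6364 and 20822 CPM in TERM. The BAT libraries of their own profile had at least 466 CPM of miR-206-3p in LAR (n = 22) and 4955 CPM in TERM (n = 17), so the lowest values came from the other libraries, and their medians were 5472 and 9896 CPM. Of the 3 heart markers, these BAT libraries held miR-499-5p at a median of 24.3 and 32.5 CPM, miR-208b-3p at 12.9 and 14.7 CPM and miR-208a-3p at 0.946 and 2.18 CPM.

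SCAT spread widely. Its miR-1a-3p stood at 285, 8069 and 34473 CPM in LAR (n = 29) and at 23.4, 17210 and 47417 CPM in TERM (n = 29). miR-133a-3p reached from 1379 to 449258 CPM in LAR around a median of 40210 CPM, and from 246 to 321821 CPM in TERM around 99954 CPM. The medians were 63278 and 106895 CPM without the libraries of another profile, and in LAR 73159 CPM without the 11 pools. miR-206-3p stood at 53.9, 7093 and 57977 CPM in LAR and at 4.37, 10344 and 47449 CPM in TERM. Even among libraries of their own profile miR-206-3p ranged from 192 to 25637 CPM in LAR (n = 21) and from 3271 to 47449 CPM in TERM (n = 24). In these SCAT libraries the heart markers had medians of 0.358 and 0.901 CPM (miR-208a-3p), 0.671 and 2.57 CPM (miR-208b-3p) and 1.99 and 7.75 CPM (miR-499-5p). Their highest values in TERM were 57.5 CPM of miR-208a-3p and 115 CPM of miR-499-5p. The source of miR-206-3p in SCAT was not tested.

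GAT and MAT held much less. In GAT the medians were 506 and 343 CPM for miR-1a-3p, 7018 and 4575 CPM for miR-133a-3p, 815 and 653 CPM for miR-133b-3p and 894 and 179 CPM for miR-206-3p, in LAR and TERM (n = 30 each). The GAT range of miR-206-3p in LAR, from 6.44 to 26398 CPM, was far wider than that in TERM, from 30.8 to 1737 CPM. In MAT the medians were 326 and 309.6 CPM for miR-1a-3p, 1700 and 2865 CPM for miR-133a-3p and 31.3 and 23.3 CPM for miR-206-3p (n = 28 and 29). The highest MAT library for miR-206-3p stood at 16817 CPM. Most MAT libraries matched another tissue. The 6 LAR and 8 TERM libraries of their own profile had medians of 518 and 617 CPM for miR-1a-3p, 3708 and 4328 CPM for miR-133a-3p and 115 and 22.7 CPM for miR-206-3p.

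In lung the muscle miRNAs were low, and the 3 heart markers differed in their order against diaphragm. miR-1a-3p stood at 227, 666 and 38892 CPM in LAR (n = 30) and at 48.6, 659.8 and 51702 CPM in TERM (n = 28), or 2.00% and 2.21% of the median in diaphragm. miR-133a-3p had medians of 4762 and 4058 CPM and miR-133b-3p of 445 and 439.7 CPM. miR-206-3p had medians of 17.8 and 14.8 CPM, beside 18.1 and 17.0 CPM in heart. miR-208a-3p was at a median of 23.1 CPM (13.2 to 91.0 CPM) in LAR and 22.11 CPM (8.73 to 57.8 CPM) in TERM in lung libraries of their own profile, against 2.34 and 2.13 CPM in diaphragm and 1009 and 841 CPM in heart. The lung medians were below those of diaphragm for miR-208b-3p (31.0 and 33.1 against 41.9 and 37.2 CPM) and for miR-499-5p (2.05 and 1.76 against 66.4 and 89.9 CPM). The lung libraries with the highest miR-1a-3p in each collection, at 38892 and 51702 CPM, had the profile of heart and stood at 11.2 and 16.8 CPM of miR-206-3p. Among lung libraries of their own profile, miR-206-3p stood above 1000 CPM in 6 of 46, the highest of them at 5780 CPM in FL LAR mouse 1, 4538 CPM in FL LAR mouse 12, 5727 CPM in HGC LAR mouse 5 and 7247 CPM in VGC TERM mouse 5. The part of heart or diaphragm tissue in these values was not tested.

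The remaining tissues were low in miR-1a-3p, but brain was not low in miR-206-3p. Brain stood at 48.1, 1341 and 4857 CPM of miR-206-3p in LAR (n = 12) and at 621, 1394 and 3403 CPM in TERM (n = 13), which placed it 4 in the order after diaphragm, SCAT and BAT. Its miR-1a-3p medians were 200.5 and 206 CPM and its miR-133b-3p medians 572 and 551 CPM. Thymus had medians of 1538 and 727 CPM for miR-1a-3p and 130.4 and 100.3 CPM for miR-206-3p. Kidney had miR-1a-3p medians of 124 and 102 CPM and miR-206-3p medians of 18.8 and 15.7 CPM, spleen 132 and 88.5 CPM and 14.2 and 12.0 CPM, liver 81.2 and 448 CPM and 14.0 and 82.6 CPM, and pancreas 414 and 377 CPM and 64.7 and 94.8 CPM.

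Few neighbours in the order of tissues were separated beyond their spread. With all libraries, the difference in mean log2 level exceeded the larger SD of the pair for 1 of 12 neighbouring pairs in LAR and 0 of 12 in TERM for each of miR-1a-3p, miR-133a-3p and miR-133b-3p, and for 0 and 1 pairs for miR-206-3p. These pairs were SCAT above thymus for miR-1a-3p and miR-133a-3p, SCAT above GAT for miR-133b-3p and brain above GAT for miR-206-3p. With all libraries, neighbours among heart, diaphragm, BAT and SCAT were thus not ordered beyond their spread for miR-1a-3p and miR-133a-3p. Tissues that were not neighbours were not compared. Without the libraries of another profile 1 to 3 pairs per miRNA and collection exceeded the SD, among them heart above BAT for miR-133a-3p in both collections and for miR-1a-3p in TERM, diaphragm above heart for miR-133b-3p in LAR and diaphragm above SCAT for miR-206-3p.

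The question the study put was whether flight altered miRNAs in each tissue. Between FL and HGC, 4 of the 52 member tests (4 miRNAs in 13 tissues) passed in LAR and 0 of 52 in TERM, where 1.42% and 0.162% of all miRNA tests passed by edgeR's quasi-likelihood test. At an unadjusted p under 0.05 the numbers were 17 and 13, or 32.7% and 25.0% of the member tests, beside 12.1% and 8.99% of all miRNA tests. Between FL and VGC, 0 and 1 of 52 passed (0.448% and 0.744% of all miRNA tests; unadjusted, 20 and 13 members beside 11.0% and 9.597% of all miRNA tests). Between HGC and VGC 0 and 0 passed (0.064% and 0.194% of all; unadjusted, 22 and 8 members beside 11.3% and 9.16% of all miRNA tests). The members of 1 tissue share libraries and are not independent tests. The 4 calls in LAR were 3 in SCAT and 1 in liver. The flight contrasts share the FL libraries.

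In the muscles themselves no member passed between FL and HGC. The 12 tests of miR-1a-3p, miR-133a-3p and miR-133b-3p in diaphragm and heart gave log2 fold changes between -0.70 and 0.73 (SE 0.739 to 0.936), so changes within that error were not resolved. In diaphragm LAR the miR-1a-3p medians of FL, HGC and VGC were 35668, 28360 and 33209 CPM and those of miR-133a-3p 262836, 275505 and 254826 CPM. Among libraries of their own profile the miR-1a-3p medians were 39699, 44522 and 40885 CPM (n = 7 each), with FL no longer the highest but the lowest, and those of miR-133a-3p were 279890, 282919 and 264269 CPM. In heart LAR they were 46189, 41308 and 45697 CPM for miR-1a-3p and 281946, 191996 and 228166 CPM for miR-133a-3p. In heart TERM miR-133a-3p stood at 168243, 196225 and 222572 CPM, with FL the lowest median where it was the highest in LAR. For miR-206-3p the 4 tests gave log2 fold changes from 0.34 to 7.61 (SE 1.02 to 2.32, lowest adjusted p = 0.209). The value of 7.61 was in heart LAR, where FL stood at 10.0, 11.3 and 23758 CPM and HGC at 6.51, 16.7 and 30.6 CPM, and its FL median was the lower. The within-library ratio of miR-206-3p to miR-1a-3p differed between FL and HGC by -0.01 in diaphragm LAR (permutation p = 0.994) and 0.20 in TERM (permutation p = 0.621), and by 0.36 in heart LAR (exact permutation p = 0.831) and 2.42 in TERM (exact permutation p = 0.153), on the log2 scale. The ratio of miR-133a-3p to miR-1a-3p came closest to the threshold in diaphragm TERM, at 0.59 (permutation p = 0.0594, 0.476 after adjustment over the 8 ratio tests). Without the 11 pools it was 0.30 (exact permutation p = 0.398), and the miR-206-3p ratio in heart TERM was 1.33 (exact permutation p = 0.382).

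In SCAT LAR, 3 of the 4 muscle miRNAs differed between FL and HGC. In FL (n = 9) miR-133a-3p stood at 1379, 18435 and 40210 CPM, in HGC (n = 10) at 63278, 90644 and 449258 CPM and in VGC (n = 10) at 3539, 36581 and 217336 CPM. miR-133b-3p stood at 261, 2682 and 5692 CPM in FL, at 9697, 14123 and 83155 CPM in HGC and at 452, 5690 and 22346 CPM in VGC. FL and HGC did not overlap for either, and VGC spanned both. The share of all miRNAs without such overlap was not counted. Among libraries of their own profile (n = 7, 8 and 6) the medians of FL, HGC and VGC were 18435, 89167 and 63513 CPM for miR-133a-3p and 2682, 12522 and 10255 CPM for miR-133b-3p, so that VGC lay nearer to HGC than to FL. miR-206-3p stood at 53.9, 1330 and 10258 CPM in FL, at 4958, 16574 and 57977 CPM in HGC and at 128, 6937 and 25637 CPM in VGC. miR-1a-3p stood at 309, 1953 and 10990 CPM, 3192, 14402 and 34473 CPM, and 285, 4755 and 19936 CPM, so that FL and HGC overlapped for both of these. The VGC medians among libraries of their own profile were 8070 CPM for miR-206-3p and 10059 CPM for miR-1a-3p. Arms also did not overlap in brain, with 4 or 5 libraries each, for miR-206-3p (FL and VGC, LAR) and miR-133b-3p (HGC and VGC, TERM).

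Of the 4 members, 3 passed as lower in FL in SCAT LAR, where 2.99% of 935 miRNAs passed in that direction. The log2 fold changes were -3.88 for miR-133b-3p (SE 0.845, adjusted p = 0.0208), -3.57 for miR-133a-3p (SE 0.848, adjusted p = 0.0343), -3.28 for miR-206-3p (SE 0.947, adjusted p = 0.0410) and, not passing, -2.46 for miR-1a-3p (SE 0.804, adjusted p = 0.0717). The median over all miRNAs tested was 0.06. Against VGC the log2 fold changes were -1.80 (miR-133a-3p), -1.71 (miR-133b-3p), -1.43 (miR-206-3p) and -0.72 (miR-1a-3p), with adjusted p from 0.343 to 0.769. HGC differed from VGC by 1.74 to 2.17 with adjusted p from 0.280 to 0.408. VGC was thus separated from neither FL nor HGC by the test. Without the 11 pools no member passed (-2.98 for miR-133b-3p, adjusted p = 0.110; -2.70 for miR-133a-3p, 0.141; -2.08 for miR-206-3p, 0.254). Without the libraries of another profile, of which FL, HGC and VGC held 2, 2 and 4, miR-133b-3p passed (-2.87, adjusted p = 0.0329) and miR-133a-3p (-2.62, 0.0691) and miR-206-3p (-2.21, 0.146) did not. Leaving out single libraries ended the call of miR-133a-3p for 6 of 29 libraries (adjusted p up to 0.0642) and that of miR-206-3p for 15 of 29 (up to 0.108), and that of miR-133b-3p for none. With the sequencing plate as a term no member passed, miR-133b-3p standing at -3.67 (adjusted p = 0.0593) and miR-133a-3p at -3.69 (0.0735).

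**Figure D4:**
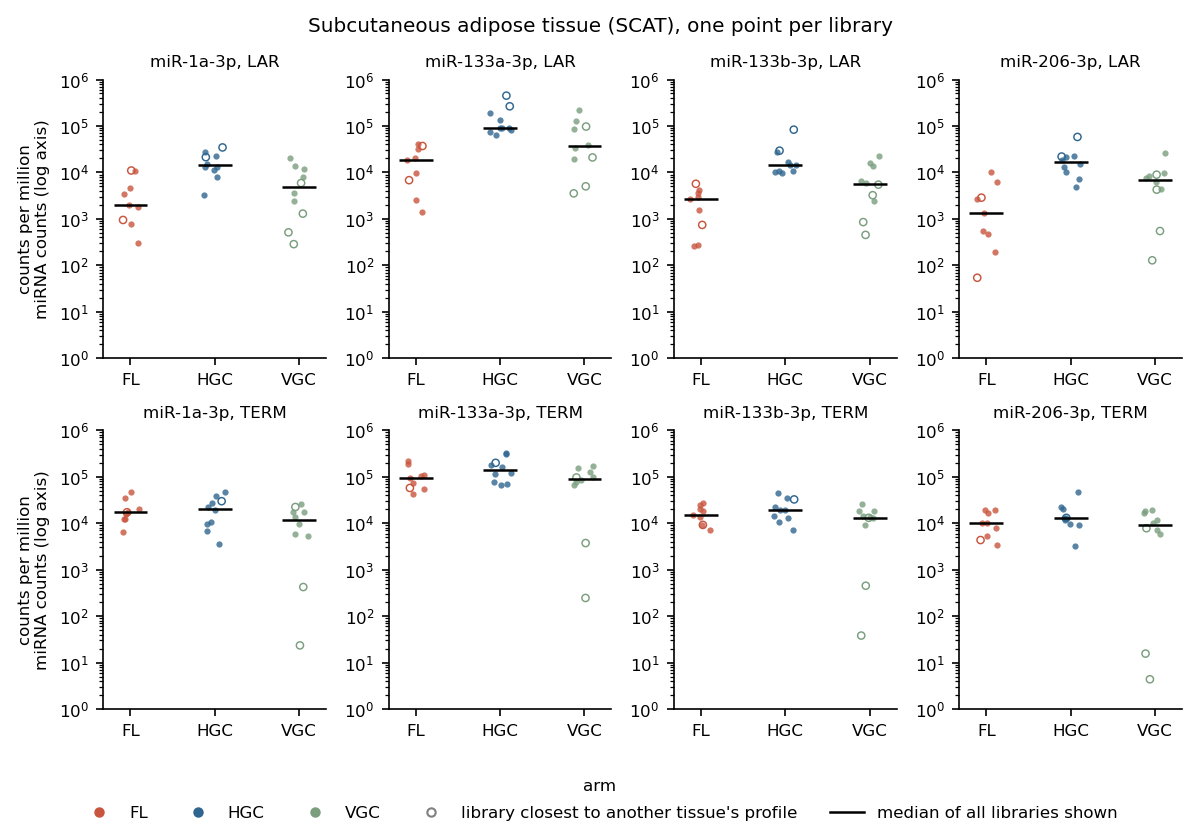
Levels of the 4 miRNAs in SCAT libraries by arm, LAR in the upper row and TERM in the lower, in CPM on a log axis, with bars at medians and open points for libraries of another profile. In LAR the FL points of miR-133a-3p and miR-133b-3p lie below all HGC points, and in TERM the arms overlap.

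Some of the listed miRNAs were lower in SCAT LAR as well. Of the list of 13, 9 had 5 or more counts in at least 10% of both the FL and the HGC libraries. Of these, 3 passed as lower in FL and 0 as higher, with a median log2 fold change of -2.05. Over all 935 miRNAs tested, 28 passed as lower and 16 as higher. The 3 listed were miR-1a-1-5p (-2.67, adjusted p = 0.0381), miR-1a-2-5p (-2.28, 0.0399) and miR-486a-5p (-2.05, 0.0381), the last known from muscle and from red blood cells. The list was tested with all libraries kept only. miR-133b-5p reached 5 counts in 2 of 10 HGC and 0 of 9 FL libraries and is left out for that reason. The heart markers had log2 fold changes of 2.68 for miR-208a-3p (adjusted p = 0.142), -1.92 for miR-208b-3p (0.336) and -2.88 for miR-499-5p (0.110). The summed level of the 3 heart markers in SCAT LAR was 0.392 to 65.3 CPM in FL, 0.830 to 139 CPM in HGC and 0 to 50.0 CPM in VGC. How much skeletal muscle each fat pad held was not tested. In SCAT TERM the miR-133a-3p medians were 92941 CPM in FL, 141363 CPM in HGC and 91567 CPM in VGC, those of miR-206-3p 9983, 12908 and 9068 CPM, and no member passed there.

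The single call in liver LAR was miR-206-3p, lower in FL than HGC by a log2 fold change of -3.49 (adjusted p = 0.0434), where 0.226% of 884 miRNAs passed as lower. Its levels were low in all arms: FL stood at 5.76, 11.7 and 73.2 CPM, HGC at 5.14, 10.7 and 768 CPM and VGC at 4.28, 14.8 and 312 CPM. The FL median was above the HGC median, and the call was lost without the 11 pools and for 14 of 29 single libraries left out. In heart TERM miR-206-3p was higher in FL than VGC by 5.24 (adjusted p = 0.0304), where 2.24% of 984 miRNAs passed as higher. FL stood at 11.0, 24.0 and 3880 CPM and VGC at 3.68, 16.3 and 46.5 CPM, and the call was lost without the pools (adjusted p = 0.710) and for 8 of 28 libraries left out. In both cases a few libraries at the top of 1 arm carried the fold change. In lung LAR, FL against HGC gave 3.58 for miR-1a-3p, 3.24 for miR-133a-3p and 3.23 for miR-133b-3p (adjusted p = 0.0814 for each), and none passed with all libraries. In kidney LAR no member passed with all libraries, but without the 11 pools miR-1a-3p was lower than in VGC in FL (-6.66) and in HGC (-6.61), where the kidney library of VGC mouse 13 held 44626 CPM with the profile of heart.

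**Figure D5:**
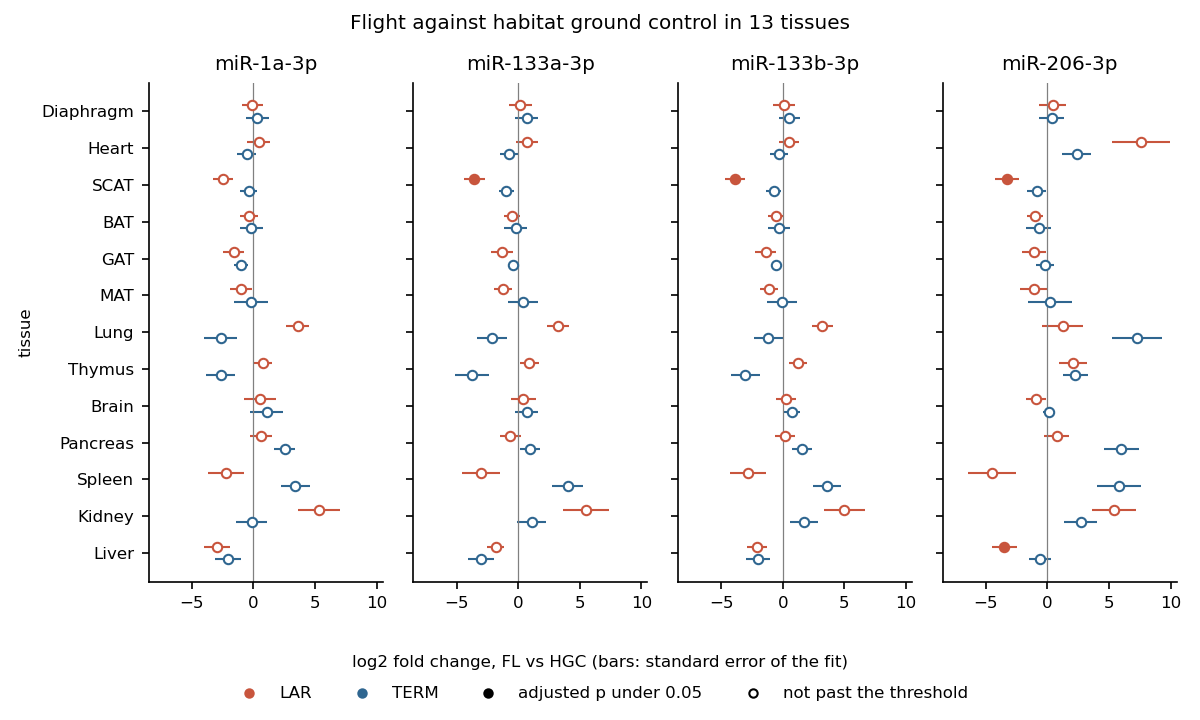
Log2 fold change of FL against HGC for each of the 4 miRNAs in 13 tissues, LAR and TERM apart, with bars for the standard error of the edgeR fit and filled points where the adjusted p was under 0.05. Filled points appear in SCAT LAR for miR-206-3p, miR-133a-3p and miR-133b-3p and in liver LAR for miR-206-3p, and the diaphragm and heart points of miR-1a-3p and both miR-133 members lie between -0.70 and 0.73.

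Age was tested as 8 against 3 months in 12 tissues. In LAR 0 of 48 member tests passed by edgeR's quasi-likelihood test, where 0.192% of all miRNA tests did. In TERM 10 of 48 passed, 3 higher and 7 lower at 8 months, where 1.54% did. At an unadjusted p under 0.05 the members were 6 in LAR and 20 in TERM, beside 10.46% and 14.4% of all miRNA tests. In GAT TERM 3 members were lower at 8 months, and these were all of the 3 miRNAs (0.33% of 909) that passed as lower there. miR-206-3p stood at 55.8, 378 and 1737 CPM at 3 months and at 30.8, 91.1 and 357 CPM at 8 months (n = 15 each; log2 fold change -2.47, SE 0.425, adjusted p = 0.00232). miR-133b-3p stood at 513, 914 and 3292 CPM and at 246, 407 and 1180 CPM (-1.24, SE 0.258, adjusted p = 0.00939), and miR-1a-3p at 244, 544 and 5121 CPM and at 119.7, 287 and 891 CPM (-1.67, SE 0.354, adjusted p = 0.0131). miR-133a-3p stood at 3541, 5834 and 26183 CPM and at 1580, 3474 and 8678 CPM (-1.01, SE 0.271, adjusted p = 0.0781). The ages overlapped for each, and no single library left out ended the 3 calls. With the sequencing plate as a term in the fit miR-1a-3p passed (-1.72, adjusted p = 0.0217) and miR-206-3p (-2.31, 0.0560) and miR-133b-3p (-1.19, 0.0986) did not. In GAT LAR the members did not pass, with log2 fold changes from 0.28 to 0.88, and the miR-206-3p medians were 766 CPM at 3 months and 1233 CPM at 8 months.

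In MAT TERM all 4 members were lower at 8 months, by log2 fold changes between -4.10 (miR-133a-3p) and -7.00 (miR-206-3p), where 10.2% of 933 miRNAs passed as lower. miR-1a-3p stood at 34.8, 567 and 31402 CPM at 3 months and at 63.5, 185 and 597 CPM at 8 months. Of the libraries, 8 of 15 at 3 months and 13 of 14 at 8 months had the profile of another tissue, most often pancreas or spleen over MAT as a whole, so age and profile moved together there. Without the 11 pools the log2 fold changes were -1.71 for miR-133a-3p, -1.88 for miR-133b-3p and -1.86 for miR-1a-3p, all passing, and -0.40 for miR-206-3p (adjusted p = 0.576), and with plate as a term none passed (adjusted p from 0.697 to 1). In thymus TERM miR-133a-3p (3.69), miR-133b-3p (3.04) and miR-1a-3p (3.03) were higher at 8 months, where 3.34% of 989 miRNAs passed as higher. miR-133a-3p stood at 735, 1405 and 28858 CPM at 3 months and at 382, 3503 and 326389 CPM at 8 months, and the 3 calls were lost without the pools and without the libraries of another profile.

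Whether the flight effect depended on age was tested as an interaction. In LAR 1 of 48 members passed (0.105% of all miRNA tests; 12 members unadjusted, beside 9.16% of all) and in TERM 1 of 48 (1.04%; 17 unadjusted, beside 10.6% of all). The LAR call was miR-1a-3p in pancreas, with an interaction of 6.54 (adjusted p = 0.0436). At 3 months FL stood at 143, 306, 409, 497 and 524 CPM and HGC at 137, 203, 418, 863 and 10961 CPM, and at 8 months FL stood at 1042, 1305, 3065, 8181 and 9920 CPM and HGC at 103, 289 and 661 CPM. The 8-month FL libraries were all above the 8-month HGC libraries, but 2 of the 5 FL libraries at each age had the profile of another tissue and 0 of the HGC libraries did, and the call was lost for 12 of 28 libraries left out. The TERM call was miR-206-3p in heart (-9.42, adjusted p = 0.0195), which was lost without FL mouse 4 or HGC mouse 16. Both calls were lost without the 11 pools.

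Between the collections, 11 of 52 member tests passed, 7 higher and 4 lower in TERM, where 6.67% of all miRNA tests passed. At an unadjusted p under 0.05 it was 18 of 52 members, beside 19.8% of all miRNA tests. In GAT all 4 members were lower in TERM (3.59% of 1032 miRNAs passed as lower), with log2 fold changes of -2.74 for miR-206-3p (adjusted p = 0.000655), -1.83 for miR-133a-3p and -1.75 for miR-133b-3p (adjusted p = 0.00407 for each) and -1.49 for miR-1a-3p (adjusted p = 0.0288), of which miR-206-3p alone passed with the plate as a term (-2.81, adjusted p = 0.0144). In liver 3 were higher in TERM (2.31% of 954 passed as higher), by 2.51 for miR-133a-3p (adjusted p = 0.0018), 2.28 for miR-1a-3p (0.0225) and 2.07 for miR-133b-3p (0.0109), and miR-206-3p had 1.85 (0.0583). Without the 11 pools only miR-133a-3p passed there (1.495, adjusted p = 0.0486), beside miR-1a-3p at 1.40 (0.260) and miR-133b-3p at 1.26 (0.186). In MAT all 4 were higher in TERM by 1.74 to 2.88 (21.4% of 985 passed as higher), but none of these calls as higher remained without the 11 pools. miR-206-3p then turned to -1.58 and was called lower (adjusted p = 0.00365), miR-1a-3p turned to -0.16 (0.746), and miR-133a-3p and miR-133b-3p stood at 0.57 (0.218) and 0.49 (0.257). Diaphragm and heart had no member call between the collections. Duration, return to Earth and freezing cannot be told apart in this contrast. The flight effect differed between the collections for 2 of 52 members, where 0.966% of all miRNA tests passed (18 members unadjusted, beside 10.6% of all). The 2 were miR-1a-3p (6.17, adjusted p = 0.0149) and miR-133a-3p (5.27, adjusted p = 0.0265) in lung, and neither call remained without the pools.

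The miRNAs whose pattern over tissues was most like each member were found by Pearson's r of median log2 levels over the 26 pairs of tissue and collection, among 624 miRNAs. They were miR-133a-5p (0.996), miR-133a-3p (0.986) and miR-133b-3p (0.975) for miR-1a-3p, and miR-133a-5p (0.991), miR-133b-3p (0.988) and miR-1a-3p (0.986) for miR-133a-3p. For miR-133b-3p they were miR-133a-3p (0.988), miR-133a-5p (0.977) and miR-1a-1-5p (0.975). For miR-206-3p they were miR-483-5p (0.871), miR-675-3p (0.783) and miR-193b-5p (0.721), and no other member was among them. The points share libraries and are dominated by the gap between muscle and other tissues, so these values are a description.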

How the data were processed

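The authors deposited estimated counts per mature miRNA (miRMaster 2.0, GRCm39, miRBase 22.1) from MGIEasy small RNA libraries read on a BGISEQ500, and 0.790% of the values carried a fraction. The members and lists were chosen with earlier results of these data known, and the text names the 4 members, a list of 13 partner strands and muscle miRNAs and, for each member, the 3 miRNAs most like it over tissues. Levels are counts per 1000000 miRNA counts (CPM), and ratios add 1 count to each side.

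Counts were rounded and tested with edgeR 4.0.16 (quasi-likelihood test, TMM factors, robust), with limma 3.58.1 and R 4.3.3, separately for each tissue and collection over the 3 arms. A miRNA was kept where at least 10% of an arm held 5 or more counts. Adjusted p-values (Benjamini-Hochberg) under 0.05 were called. Ratios were compared by 2-sided permutation tests with scipy 1.17.1, exact where a group held fewer than 10 libraries and otherwise with 100000 resamples. The procedure was tested on simulated data. DESeq2 1.42.0 was an alternative.

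Mice that share a number in different arms are different animals. Libraries of the same arm, collection and number come from the same mouse, and this paired diaphragm with heart in 12 LAR and 27 TERM mice. Libraries of 1 group are separate mice. Each library was compared with the median profile of every tissue over 717 miRNAs, and a pool was set aside in an alternative where more than 1 in 3 of its libraries were closest to another tissue.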

Additional observations from a re-analysis of the deposited data

Results flagged for a closer look

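In 60 sets of log2 levels, each of 1 miRNA in 1 arm of 6 to 10 libraries of diaphragm, heart or SCAT LAR, the highest or lowest library was compared with the rest of its arm, and chance sets a library far apart in about 1 in 20 sets. There were 35 such values in 14 libraries, 31 of them in the 11 pools with many libraries of another profile, and each of these libraries was closest to another tissue (named in brackets, with levels rounded to 3 digits). In diaphragm LAR, miR-206-3p was at 6.11 CPM in FL mouse 13 (closest to pancreas) and 7.81 CPM in HGC mouse 11 (kidney), and VGC mouse 11 (pancreas) held miR-1a-3p at 382, miR-133a-3p at 2690 and miR-133b-3p at 589 CPM. In diaphragm TERM, FL mouse 5 (liver) stood at 15.4, 182, 42.8 and 5.77 CPM for miR-1a-3p, miR-133a-3p, miR-133b-3p and, last, miR-206-3p. In the same order HGC mouse 16 (spleen) stood at 35.9, 253, 48.4 and 15.0 CPM and VGC mouse 4 (liver) at 14.6, 136, 33.3 and 3.55 CPM.

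In heart LAR, FL mouse 13 (diaphragm) held miR-206-3p at 23800 CPM. HGC mouse 8 (lung) stood at 551, 2860 and 379 CPM for miR-1a-3p, miR-133a-3p and miR-133b-3p, and VGC mouse 9 (kidney) at 43.6, 299 and 46.8 CPM. In heart TERM, the same 3 miRNAs stood at 80.0, 315 and 48.8 CPM in FL mouse 14 (kidney), at 90.7, 529 and 66.5 CPM in HGC mouse 12 (spleen) and at 97.9, 493 and 69.5 CPM in VGC mouse 12 (spleen), and HGC mouse 16 (thymus) held miR-206-3p at 1050 CPM. In SCAT LAR, HGC mouse 16 (diaphragm) held miR-133b-3p at 83200 CPM.

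The effect of flight (FL against HGC) differed by age for miR-1a-3p in pancreas LAR (6.54) and for miR-206-3p in heart TERM (-9.42), on the log2 scale. It differed by collection in lung for miR-133a-3p (5.27) and miR-1a-3p (6.17). These differences were tested as interactions with edgeR, and all 4 calls were lost without the 11 pools.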

How the results depend on the processing

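Counts of members called moved with the choice of libraries and tool. FL against HGC in LAR (4 calls) gave 2 without the filter, 7 with DESeq2's test, 0 without the 11 pools, 1 without libraries of another profile, 0 with plate as a term, 11 by a rule on fold and effect size after the study's and 2 to 7 leaving out 1 library. In TERM (0) it gave 1 with DESeq2 size factors, 2 without the filter, 1 with DESeq2's test, 4 by the study's rule and 0 to 1 leaving out 1 library. FL against VGC in LAR (0) gave 1 with DESeq2 size factors, plain totals or totals without the members, 4 with DESeq2's test, 4 without the pools, 4 without other profiles, 9 by the study's rule and 0 to 4 leaving out 1 library. In TERM (1) it gave 0 without the pools, without other profiles and with plate, 4 by the study's rule and 0 to 1 leaving out 1 library. HGC against VGC in LAR (0) gave 2 with DESeq2's test, 3 without the pools, 1 without other profiles, 6 by the study's rule and 0 to 2 leaving out 1 library, and in TERM (0) 1 with DESeq2's test, 2 by the study's rule and 0 to 2 leaving out 1 library. Age in TERM (10) gave 3 without other profiles and 1 with plate. Flight by age in LAR (1) gave 2 with totals without the members, 0 without the filter, 4 with DESeq2's test, 0 without the pools, without other profiles or with plate and 0 to 4 leaving out 1 library, and in TERM (1) 7 with DESeq2's test, 0 without the pools, without other profiles or with plate and 0 at the lowest leaving out 1 library. Diaphragm against heart (1 in each collection) gave 3 in LAR and 2 in TERM without the pools and without other profiles. TERM against LAR (11) gave 4 with plate, and flight by collection (2) gave 0 without the pools, without other profiles or with plate.

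Some values changed sign, and the cause was not tested. The log2 difference of diaphragm to heart for miR-133a-3p became -0.23 in LAR with the replicate block and ran from -0.0590 to 0.0908 leaving out 1 library, and in TERM it became 0.15 with DESeq2 size factors or test, 0.0687 with plain totals, 0.31 with totals without the members, 0.26 without the pools, 0.33 without other profiles, and ran from -0.137 to 0.0442 leaving out 1 library. In TERM miR-133b-3p became -0.40 with plate, and miR-1a-3p 0.0126 with totals without the members and 0.0179 without other profiles. With plate, 2 values kept their sign in TERM but moved further from 0. miR-1a-3p went from -0.33 to -1.31 and miR-133a-3p from -0.02 to -0.87, and neither passed. The interaction with age of miR-206-3p in heart TERM became 0.55 with plate, and that with collection of miR-1a-3p in lung -0.34 without the pools and -0.33 without other profiles. TERM against LAR in MAT became -0.16 for miR-1a-3p and -1.58 for miR-206-3p without the pools and -2.36 for the latter without other profiles. The ratio of miR-206-3p to miR-1a-3p became 0.0471 (pseudocount 10) and 0.24 (without the pools) in diaphragm LAR and -0.39 (without the pools) in heart LAR, and that of miR-133a-3p to miR-1a-3p became 0.0799 without the pools in diaphragm LAR.

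Mouse numbers shared by the arms mark different animals, and in no tissue did every pair of same-numbered libraries correlate above 0.1. With the number as a replicate block, FL against HGC gave 4 and 0 calls, FL against VGC 0 and 0 (1 fewer in TERM) and HGC against VGC 0 and 0, in LAR and TERM. With the mouse as a replicate block, miR-206-3p differed between diaphragm and heart by 9.87 and 9.52, and no member call changed. Age in MAT TERM could not be fitted without libraries of another profile. Every library held counts of the 4 miRNAs, while their partner strands had few, and how detection of these strands moved with depth was not tested.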
